A study of Mus musculus with 12 samples.

Results

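The repeats described here are the rows of the deposited table whose repeat class is Satellite, scRNA or srpRNA. They numbered 7384 of 684965 repeat rows, each row being 1 genomic copy. The Satellite class held 2968 copies in 7 subfamilies: MMSAT4 (1288 copies), MurSAT1 (1098), ZP3AR (546), GSAT_MM (14), IMPB_01 (14), SYNREP_MM (7) and 1 copy annotated as both GSAT_MM and SYNREP_MM. The scRNA class held the 4376 copies of BC1_Mm, and the srpRNA class held the 40 copies of 7SLRNA. GSAT_MM is the mouse major satellite, BC1_Mm collects sequences related to the small cytoplasmic RNA BC1, and 7SLRNA collects sequences related to the RNA of the signal recognition particle.

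Polyadenylated RNA was sequenced from 12 tumours grown from YUMM1.7, a mouse melanoma line. The F0 tumours grew from the line itself in syngeneic mice, and dissociated tumour cells were then carried on from mouse to mouse. Of the passages in that chain, F0 (the start), N2.1, CBA and Balb/c-2 were sequenced, with 3 different tumours (A, B and C) from each. No further treatment is named for any group, and host age and genotype are not stated in the labels. Balb/c-2 and CBA carry the names of mouse strains, but the labels do not otherwise give the host strain. Passage and any difference in host strain therefore cannot be told apart. The 4 groups belong to 1 chain of passages of 1 line, so p values reflect how tumours within a passage differ, not how repeated chains would. Cells of the host are part of a tumour biopsy, and in bulk RNA fewer cells of a type and less RNA per cell cannot be told apart.

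Depth ran from 34721735 to 59404254 recovered reads per tumour. All F0 and N2.1 tumours and Balb/c-2 A were on a first flow cell (7 tumours), and Balb/c-2 B, Balb/c-2 C and all CBA tumours on a second (5 tumours), so CBA and F0 had no flow cell in common. Of 6 melanocyte markers, Mitf lay between 318 and 1290 normalised reads, Pmel between 12.5 and 59.6 and Sox10 between 0.954 and 178, while Tyr, Dct and Mlana stayed at or below 7.44 in each of the 12 tumours. Of the markers of the labelled cell type, Mitf was thus clearly present and 3 pigment cell genes were at or near 0.

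Major satellite DNA is an AT-rich unit repeated in tandem in the heterochromatin beside mouse centromeres, where it is normally silent and marked by histone and DNA methylation. BC1 is a short transcript of RNA polymerase III, best known from rodent neurons, with an A-rich stretch inside it. 7SL RNA is also made by RNA polymerase III and is the scaffold of the particle that brings nascent secretory proteins to the endoplasmic reticulum. Poly(A) selection keeps RNA that holds a run of A, so RNAs of this kind are captured in part.

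The reference sequences of Bc1, of 1 unit of the major satellite and of the most abundant MMSAT4 copy show what the reads were assigned to. They were read from the GENCODE M21 transcripts of GRCm38 (mm10), 5′ to 3′ on the strand of the annotated gene. Bc1 lies on the plus strand (chr7:144914470-144914637), with 23 A in a row from base 77, in capitals. The major satellite unit is part of the exon of Gm10800 on the minus strand (chr2:98666807-98667040), with its longest run of T, which is a run of A on the other strand, in capitals.
Bc1: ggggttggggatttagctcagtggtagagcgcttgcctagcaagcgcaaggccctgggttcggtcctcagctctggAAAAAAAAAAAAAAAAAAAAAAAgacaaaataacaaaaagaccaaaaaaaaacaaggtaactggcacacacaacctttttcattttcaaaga
GSAT_MM unit in Gm10800: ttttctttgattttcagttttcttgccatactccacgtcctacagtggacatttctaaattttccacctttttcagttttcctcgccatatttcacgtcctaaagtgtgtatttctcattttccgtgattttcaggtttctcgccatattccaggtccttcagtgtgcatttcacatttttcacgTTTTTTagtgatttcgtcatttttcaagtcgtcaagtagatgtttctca
The satellite unit was 234 bases long: shifted by that length, the Gm10800 sequence matched itself at 67 of 72 bases (93.1%). The exons of Rn7s1 and Rn7s2 were identical over all 300 bases compared, so the reads of these 2 genes are not separable by sequence.

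The MMSAT4 copy in Zfp771, a zinc finger gene (chr7:127254083-127254202, plus strand), codes for protein, and capitals mark the 14-base motif ACNGGNGANAANCC, which spells codons of the short linker between neighbouring zinc fingers.
MMSAT4 in Zfp771: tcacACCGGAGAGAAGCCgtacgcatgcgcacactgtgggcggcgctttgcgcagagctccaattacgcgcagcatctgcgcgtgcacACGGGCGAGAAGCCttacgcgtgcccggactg
That motif was searched on both strands and matched 2 times in this copy. It was found in 597 of the 1012 MMSAT4 copies held whole by an exon (59.0%), in 0 of 429 such BC1_Mm copies and in 0 of 50 such ZP3AR copies. Among 32851 RefSeq promoter windows cut to 148 bases, the median length of these MMSAT4 copies, 5 held it (0.0152%). Matches describe letters only.

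Most of the signal came from copies inside exons of annotated genes. Exon copies were 23.5% of the 7384 copies and held 91.9% of their signal, while intergenic copies were 29.8% of the copies and held 2.33%. MMSAT4 was the most exonic, with 1109 of its 1288 copies in exons of 468 genes, 870 of them overlapping coding sequence. Of those 1109 copies, 785 lay in genes whose symbols begin with Zfp or another zinc finger stem. BC1_Mm had 12.5% of its copies in exons, and these held 88.8% of its signal, mostly in untranslated regions (83.7%). MurSAT1 had 1046 copies on chromosome Y and 52 on X, with 1.51% of its signal in exons. Reads in an exon copy cannot be told apart from the transcript of the host gene.

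**Figure D1:**
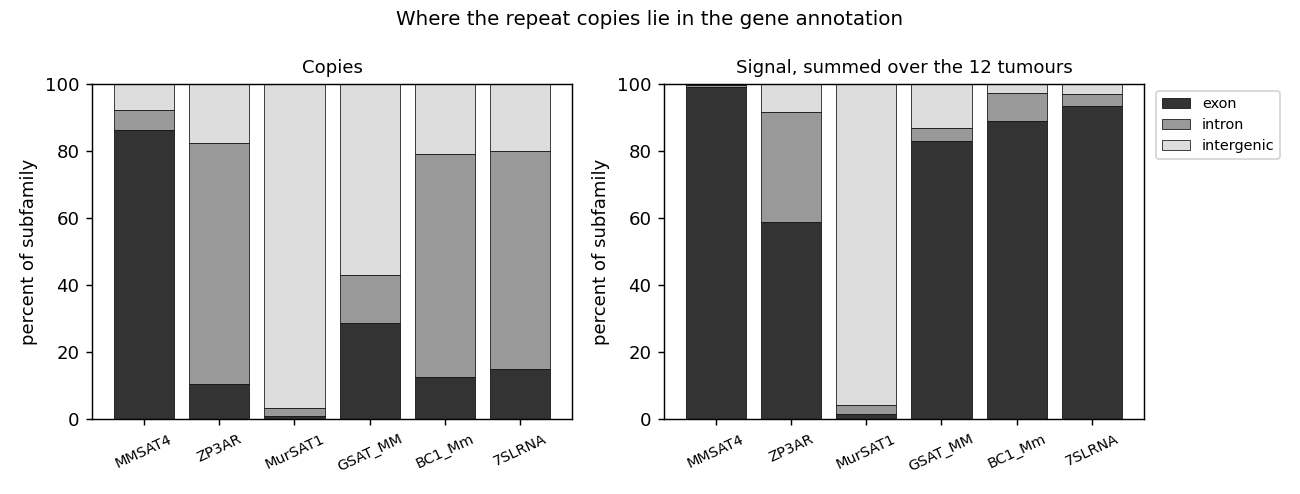
Stacked bars give the percent of copies (left) and of signal summed over the 12 tumours (right) of each subfamily in exons, introns and between genes. MMSAT4, BC1_Mm and 7SLRNA have 99.0%, 88.8% and 93.2% of their signal in exons, and MurSAT1 has 95.8% between genes.

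Together the 7384 copies took 1.72% to 2.95% of the repeat signal of a tumour. Summed by class, no class passed a test of the 4 groups: the exact permutation test over 15400 partitions of the tumours gave adjusted p = 0.721 for Satellite, 0.515 for scRNA and 0.721 for srpRNA. Of the 9 subfamilies, 6 passed the filter on low values (at least 10 in at least 3 tumours), and IMPB_01, SYNREP_MM and the GSAT_MM and SYNREP_MM copy did not. IMPB_01 lay between 0 and 15.4 and SYNREP_MM between 0 and 12.4. The copy annotated as both had 5 reads in N2.1 A and 2 in Balb/c-2 A, with 0 in the other tumours. Of the single copies, 607 passed: 348 of MMSAT4, 224 of BC1_Mm, 31 of ZP3AR, 2 of GSAT_MM and 2 of 7SLRNA.

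**Figure D2:**
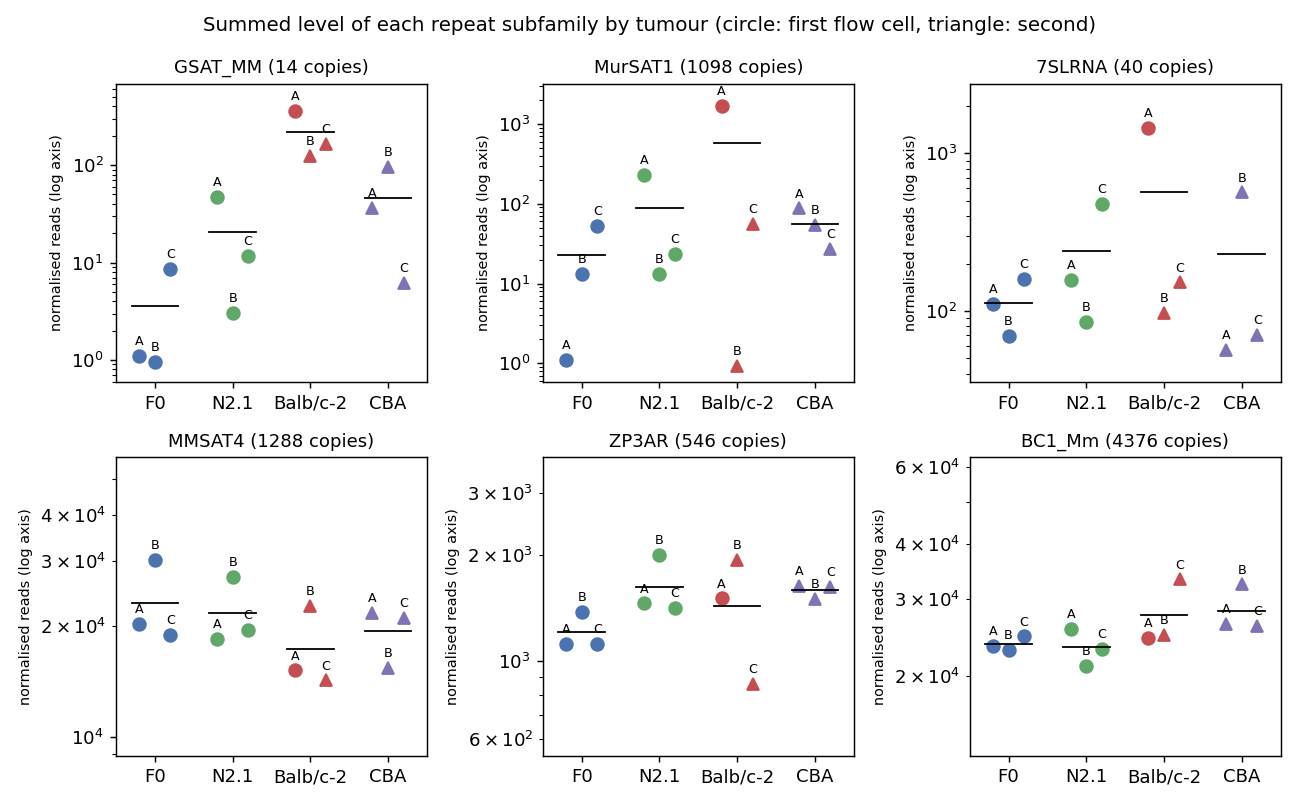
Points are the summed normalised reads of each subfamily in each tumour on a log axis, bars are group means, and the shape gives the flow cell. GSAT_MM is highest in the 3 Balb/c-2 tumours, MurSAT1 and 7SLRNA peak in Balb/c-2 A, and BC1_Mm is highest in Balb/c-2 C and CBA B.

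The major satellite rose in Balb/c-2 tumours against F0. The GSAT_MM copies summed to 1.11, 0.954 and 8.67 normalised reads in the F0 tumours A to C, and to 360.4, 124 and 165 in the Balb/c-2 tumours in the same order. It was at 47.3, 3.06 and 11.7 in N2.1 and at 36.1, 96.1 and 6.23 in CBA. All Balb/c-2 tumours lay above all others, while N2.1 and CBA overlapped with F0.

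The F0 mean of GSAT_MM was 3.58 ± 4.41 and the Balb/c-2 mean 216 ± 126 (SD, n = 3). The log2 change was 5.84 ± 1.07 (SE, limma, adjusted p = 0.0162). Of the subfamilies described here that passed the filter, GSAT_MM was the only one called in Balb/c-2 against F0. In that comparison 2.51% of all 1197 subfamilies tested were called and 2.26% were called higher. On the first flow cell alone, with Balb/c-2 A as the single Balb/c-2 tumour and its spread taken from the other groups, the log2 change was 6.72 (adjusted p = 0.0126). The call was lost without F0 A (adjusted p = 0.0818), F0 B (0.0779) or Balb/c-2 A (0.0757), with log2 changes between 5.40 and 5.49.

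Against N2.1 the log2 change of GSAT_MM in Balb/c-2 was 3.85 ± 1.07 (adjusted p = 0.130), in CBA against F0 it was 3.12 ± 1.07 (0.195), in N2.1 against F0 it was 1.99 ± 1.07 (0.518), and in CBA against Balb/c-2 it was -2.72 ± 1.07 (0.611). None of these passed with limma or edgeR. With DESeq2 the first passed (log2 3.38, adjusted p = 0.0172) and so did the second (log2 3.67, adjusted p = 0.0159).

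One locus made up most of the major satellite signal. The copy in Gm10800, a predicted gene (chr2:98666542-98667332), held 70.4% of it, with 0, 0.954 and 1.93 normalised reads in F0, 26.5, 0 and 6.32 in N2.1, 230, 105 and 144 in Balb/c-2, and 17.1, 73.5 and 0 in CBA. That is 3 reads over the F0 tumours against 559 over Balb/c-2, a ratio of 161 between reads divided by the summed size factors of each group (exact 95% interval of counting error 55.0 to 785). As a single copy it was not called in Balb/c-2 against F0 (log2 6.42 ± 1.38, adjusted p = 0.0510).

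The annotated gene Gm10800 (chr2:98666547-98667301) lies wholly inside that copy, so its gene row is not a separate measurement. The gene row was at 243, 107 and 155 in Balb/c-2 and at most 2.89 in F0. It was called higher (log2 6.35 ± 1.49, adjusted p = 0.0411). The level of the copy was 92.8% to 98.3% of this row in the Balb/c-2 tumours. The call of the gene row therefore adds no evidence to that of the copy, which was not called. The other 13 copies together lay at 1.11, 0 and 6.75 in F0 and at 131, 18.7 and 20.6 in Balb/c-2, so the groups did not overlap there either. The number of the 14 copies with at least 1 read over a group was 5 in F0, 5 in N2.1, 12 in Balb/c-2 and 9 in CBA. A reference locus stands for many near-identical units, and how multiply mapped reads were treated is not known, so the place of origin of these reads is uncertain.

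MurSAT1, a satellite of the Y and X chromosomes, was high in 1 tumour. Its sum was 1693 in Balb/c-2 A and 0.933 and 55.8 in Balb/c-2 B and C. It was 1.11, 13.4 and 53.0 in F0, 228, 13.2 and 23.5 in N2.1, and 87.5, 54.6 and 27.4 in CBA. In Balb/c-2 A 896 of the 1098 copies had at least 1 read, against 1 to 128 in the other tumours, and the highest single copy was at 11.6 normalised reads. The signal was thus spread thinly over many copies.

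MurSAT1 was not called in any comparison with limma over all 12 tumours (Balb/c-2 against F0: log2 2.28 ± 1.95, adjusted p = 0.477). DESeq2 called it in Balb/c-2 against F0 (log2 4.70, adjusted p = 0.0483). The fits that hold flow cell fixed compare Balb/c-2 A alone with F0 and did call it (log2 7.17, adjusted p = 0.0342 on the first flow cell). Balb/c-2 A was also the tumour with the most genes detected (26376) and with the highest B cell markers, with Cd79a at 10147 against 6.53 to 218 elsewhere. The part of these in the MurSAT1 level was not tested. In CBA B, 19 of 46 MurSAT1 reads were on chromosome X and the Y-linked gene Ddx3y, named after its value was seen, was at 272 against 1336 to 3907 elsewhere.

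MMSAT4 is the largest satellite by signal, and its sum did not pass in any comparison. It was 20323, 30189 and 18930 in F0, 18501, 27243 and 19487 in N2.1, 15162, 22702 and 14247 in Balb/c-2, and 21665, 15399 and 21069 in CBA. The B tumours of F0, N2.1 and Balb/c-2 were the highest of their groups. Balb/c-2 against F0 gave a log2 change of -0.41 ± 0.24 (adjusted p = 0.291).

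MMSAT4 levels moved with how far a copy lies from the 3′ end of its transcript, a grouping chosen after values were seen. The 161 copies over 2000 bases from the 3′ end summed to 1467 in Balb/c-2 C, 2419 in CBA B and 3159 in Balb/c-2 A. The same copies summed to 13663 in F0 B, 13494 in N2.1 B and 10607 in Balb/c-2 B. The 147 copies between 500 and 2000 bases away stayed between 9456 and 13416. The part of this loss of distant reads in the MMSAT4 and BC1_Mm values was not tested.

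**Figure D3:**
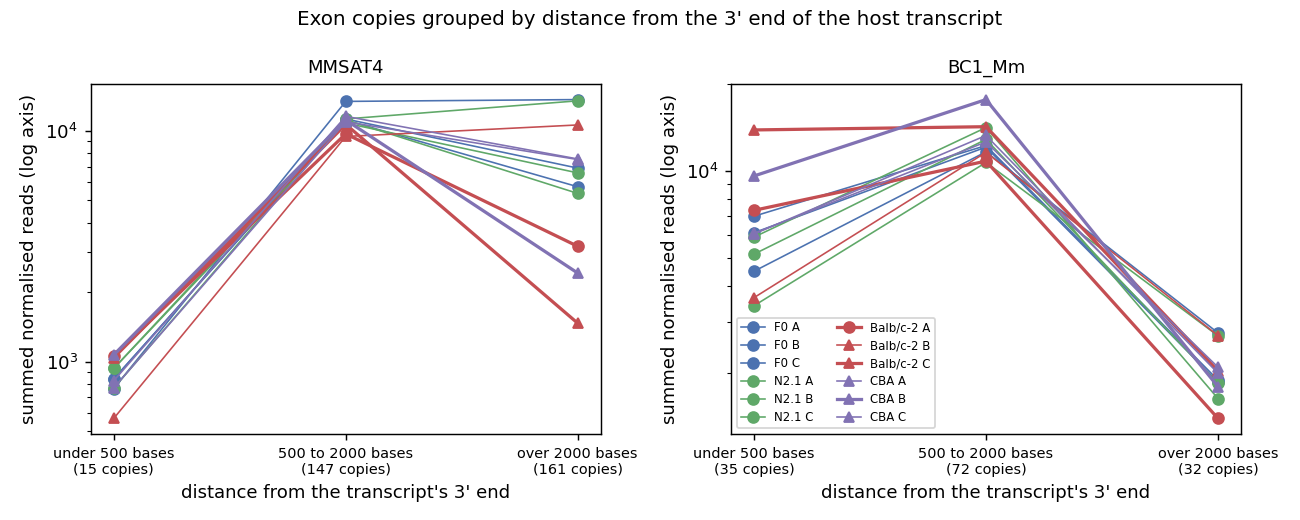
Lines join, for each tumour, the summed normalised reads (log axis) of exon copies under 500, 500 to 2000 and over 2000 bases from the 3′ end of the host transcript, for MMSAT4 and BC1_Mm. Balb/c-2 C and CBA B fall lowest for distant MMSAT4 copies (1467 and 2419) and highest for BC1_Mm copies near the 3′ end (13841 and 9591).

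The share of a zinc finger host's reads that an MMSAT4 copy held was steady for some hosts and varied for others. The most abundant copy, in Zfp771 and shown above, lay at 1399, 1264 and 1627 in F0, 1581, 969 and 1103 in N2.1, 1829, 630 and 3904 in Balb/c-2 and 1388, 2805 and 1235 in CBA, and was 42.5% to 50.3% of the host's gene row in each tumour. It was not called (Balb/c-2 against F0: log2 0.21 ± 0.54, adjusted p = 0.909). The next most abundant copies lay in the coding sequence of Zfp777, Zfp740, Hic1 and Zfp574. The Zfp740 copy was between 1.24% (CBA B) and 12.2% (F0 B) of its gene row, and the Zfp574 copy between 17.2% (F0 B) and 52.3% (CBA B). Over the 337 MMSAT4 copies with a tested host, the log2 changes of copy and gene row differed by a median of 0.78 in Balb/c-2 against F0, 0.48 in CBA against F0 and 0.23 in N2.1 against F0.

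The copy in Hic1, which encodes a zinc finger transcriptional repressor (chr11:75165737-75165869), fell in Balb/c-2 and CBA. It was at 899, 1653 and 773 in F0, 318, 351 and 243 in N2.1, 196, 150 and 61.8 in Balb/c-2, and 137, 318 and 152 in CBA. No tumour of the later passages reached the lowest F0 value. The log2 change was -3.09 ± 0.49 in Balb/c-2 (adjusted p = 0.00914), -2.47 ± 0.49 in CBA (0.0299) and -1.80 ± 0.49 in N2.1 (0.0981). The Hic1 gene row fell in all 3 comparisons against F0, with log2 changes of -2.89 in Balb/c-2, -2.79 in CBA and -1.99 in N2.1 (adjusted p = 0.00677, 0.00546 and 0.025). With only the F0 and Balb/c-2 tumours fitted, the copy was not called. With flow cell as a covariate the copy was not called in Balb/c-2 (adjusted p = 0.275) or CBA (0.881), and on the first flow cell alone it was at log2 -2.41 in Balb/c-2 (0.0339). The CBA call was also lost in edgeR, with only those groups fitted, and without each of F0 A, F0 B, F0 C, CBA A and CBA C.

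A pair of MMSAT4 copies on chromosome 4 rose from almost no reads. The copy in the untranslated region of Zfp985, a zinc finger gene (chr4:147584234-147584501), had 0 reads in each F0 and N2.1 tumour, 26.5, 27.1 and 38.6 normalised reads in Balb/c-2, and 57.7, 28.5 and 74.7 in CBA. With a floor of 3 reads for the lower group as a whole, it was at least 30.6-fold higher in Balb/c-2 and at least 53.5-fold higher in CBA than in F0, and at least 32.2-fold higher in Balb/c-2 than in N2.1. It was called in all 3 comparisons (adjusted p = 0.00615, 0.00217 and 0.00697). The copy passed the filter on low values only through Balb/c-2 and CBA tumours. With only the 2 groups compared in the fit, its calls in Balb/c-2 against F0 and against N2.1 were lost. The copy in Zfp979 (chr4:147612714-147612869) had 2 reads over F0 and 97 over CBA, a ratio of 52.6 on the same scale (exact 95% interval 14.2 to 440), and was called in CBA against F0 (adjusted p = 0.0198). Its level was 0, 0 and 1.93 in F0, 3.79, 0 and 0 in N2.1, 17.4, 17.7 and 23.2 in Balb/c-2, and 38.8, 36.8 and 28.6 in CBA. The Zfp979 copy too passed the filter only through Balb/c-2 and CBA tumours.

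The gene rows of Zfp985 and Zfp979 rose in Balb/c-2 and CBA as well (log2 7.26 and 3.98 in Balb/c-2, adjusted p = 7.6e-05 and 0.00135). The Zfp985 gene row, at 0 to 2.22 in F0 and N2.1, passed the filter only through Balb/c-2 and CBA tumours. Gene rows were not fitted with flow cell. Flow cell as a covariate ended these copy calls (adjusted p = 0.130 to 0.725), and on the first flow cell alone Zfp985 in Balb/c-2 was at log2 4.78 (0.0806 against F0). The Zfp979 copy kept its call under 4 of 15 alternatives, and lost it in edgeR and without each of F0 A, F0 B and any CBA tumour. The 44 MMSAT4 copies of the region around them (chromosome 4, 145449811 to 147826637), chosen after values were seen, summed to 233 ± 51.3 in F0, 275 ± 54.3 in N2.1, 382 ± 100 in Balb/c-2 and 373 ± 101 in CBA (SD, n = 3).

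ZP3AR sums did not pass. They were 1118, 1380 and 1115 in F0, 1455, 1994 and 1411 in N2.1, 1504, 1937 and 859 in Balb/c-2, and 1633, 1499 and 1622 in CBA. N2.1 and CBA lay above F0 in every tumour, with log2 changes of 0.42 ± 0.29 (adjusted p = 0.701) and 0.40 ± 0.29 (0.680). Its copies were concentrated on chromosomes 7 (214) and 5 (190), and the most abundant, in the untranslated region of Tbl2, was between 155 and 423 in every tumour.

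The ZP3AR copy 808 bases from Il12rb1, which encodes a subunit of the interleukin 12 receptor (chr8:70822232-70822356), rose in N2.1. It was at 4.44, 1.91 and 24.1 in F0, 132, 93.7 and 107 in N2.1, 46.3, 145 and 7.72 in Balb/c-2, and 115, 102 and 111 in CBA. The log2 change was 3.91 ± 0.89 in N2.1 against F0 (adjusted p = 0.0447) and 3.91 ± 0.89 in CBA (0.0557). The Il12rb1 gene row was called higher in N2.1, Balb/c-2 and CBA (log2 3.44, 2.69 and 3.74, adjusted p = 0.00311, 0.0154 and 0.00146). The N2.1 call of the copy was lost in edgeR, under TMM scaling, with flow cell as a covariate and without F0 A, F0 B or any N2.1 tumour (adjusted p up to 0.213). With the tumour letter as a block over all 12 tumours the copy was not called (adjusted p = 0.114), and with the block over the 6 tumours of F0 and N2.1 it was (0.000641).

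BC1_Mm, the subfamily with the most copies, had the highest sum of the 9 subfamilies, and it was not called in any comparison. Of that signal 88.8% lay in exons of annotated genes. The sum was 23450, 22952 and 24615 in F0, 25651, 21025 and 22999 in N2.1, 24412, 24841 and 33213 in Balb/c-2, and 26240, 32348 and 25946 in CBA. All CBA tumours lay above all F0 tumours (log2 0.24 ± 0.15, adjusted p = 0.628). The high tumours were Balb/c-2 C and CBA B, in which the 35 copies within 500 bases of a 3′ end summed to 13841 and 9591, against 3411 to 7295 in the others.

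The 5 most abundant BC1_Mm copies all lay in untranslated regions: of Rnf213, a ubiquitin ligase, Tor1aip2, which activates torsin ATPases, the small GTPase gene Rab12, Fam102b, and Aldh18a1 of proline synthesis. None was called. The Rnf213 copy, at 7.93% of the subfamily, was at 1685, 323 and 1286 in F0, 2990, 1250 and 2341 in N2.1, 1709, 2127 and 2933 in Balb/c-2, and 1935, 4026 and 1807 in CBA.

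The Bc1 locus itself was a small part of BC1_Mm (0.262%), and it fell in N2.1. It was at 112, 81.1 and 103 in F0, 28.4, 28.5 and 27.1 in N2.1, 105, 67.2 and 78.9 in Balb/c-2, and 59.5, 71.2 and 44.8 in CBA. The N2.1 tumours were the lowest and hardly differed among themselves. The mean of Bc1 was 98.8 ± 15.9 in F0 and 28.0 ± 0.790 in N2.1 (SD, n = 3), and the log2 change -1.77 ± 0.39 (SE, limma, adjusted p = 0.0374), with all 6 tumours on the same flow cell. Against F0 the log2 change was -0.25 ± 0.39 in Balb/c-2 (adjusted p = 0.842) and -0.76 ± 0.39 in CBA (0.539). The N2.1 call was lost in edgeR, with no filter and without any 1 of the 6 F0 and N2.1 tumours, and its log2 change stayed between -1.90 and -1.51 over the 16 alternatives. With the tumour letter as a block over all 12 tumours Bc1 was not called (adjusted p = 0.0738), and with the block over the 6 tumours of F0 and N2.1 it was (0.0016).

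Among neuronal markers, Rbfox3 lay between 0 and 15.1 normalised reads and Snap25 between 1.11 and 22.4. Syt1 was at 0.954 to 5.55 in F0 and at 14.9 to 65.2 in the other tumours, and rose in N2.1, Balb/c-2 and CBA (log2 3.46, 2.86 and 2.53, adjusted p = 0.00616, 0.0237 and 0.0311). Syt1 passed the filter on low values only through N2.1, Balb/c-2 and CBA tumours. The most abundant of the 4 markers, Tubb3, was between 1491 and 6899.

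The other called BC1_Mm copies lay in transcripts whose gene rows moved the same way. The copy in Apol6, an apolipoprotein L gene (chr15:77051423-77051526), rose. It was at 6.66, 2.86 and 10.6 in F0, 176, 215 and 93.0 in N2.1, 27.3, 139 and 28.3 in Balb/c-2, and 67.7, 187 and 66.0 in CBA. The log2 change was 4.45 ± 0.69 in N2.1 (adjusted p = 0.00642) and 3.77 ± 0.69 in CBA (0.0192), beside 4.69 and 4.40 for the gene row (0.00565 and 0.00836). The N2.1 call of the copy was lost without N2.1 A (adjusted p = 0.0562), and that of the gene row with the block over the 6 tumours (0.1005). The CBA call was lost with flow cell as a covariate (0.846), in edgeR and without any 1 of F0 A, F0 B and the CBA tumours.

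The copy in Lrrc17, which encodes a secreted leucine-rich repeat protein (chr5:21575448-21575540), fell in N2.1. It was at 317, 522 and 289 in F0, 37.9, 35.7 and 53.3 in N2.1, 312, 70.0 and 304 in Balb/c-2, and 333, 601 and 391 in CBA. N2.1 lay below all other tumours. The log2 change was -3.10 ± 0.53 (adjusted p = 0.0112), beside -2.92 for the gene row (0.00207), and the copy's call was lost without F0 B or N2.1 A (up to 0.0760).

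The copy in Zfp354c, a zinc finger gene (chr11:50812468-50812578), fell in Balb/c-2. It was at 40.0, 97.3 and 68.4 in F0, 15.1, 6.11 and 16.3 in N2.1, 4.96, 6.53 and 1.72 in Balb/c-2, and 3.61, 17.8 and 14.9 in CBA. F0 lay above all others. The log2 change in Balb/c-2 was -3.72 ± 0.71 (adjusted p = 0.0295), and on the first flow cell alone -3.46 (0.0489). The call was lost in edgeR, with no filter, with flow cell as a covariate (0.314), and without each of F0 A, F0 B, F0 C, Balb/c-2 A and Balb/c-2 C.

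**Figure D4:**
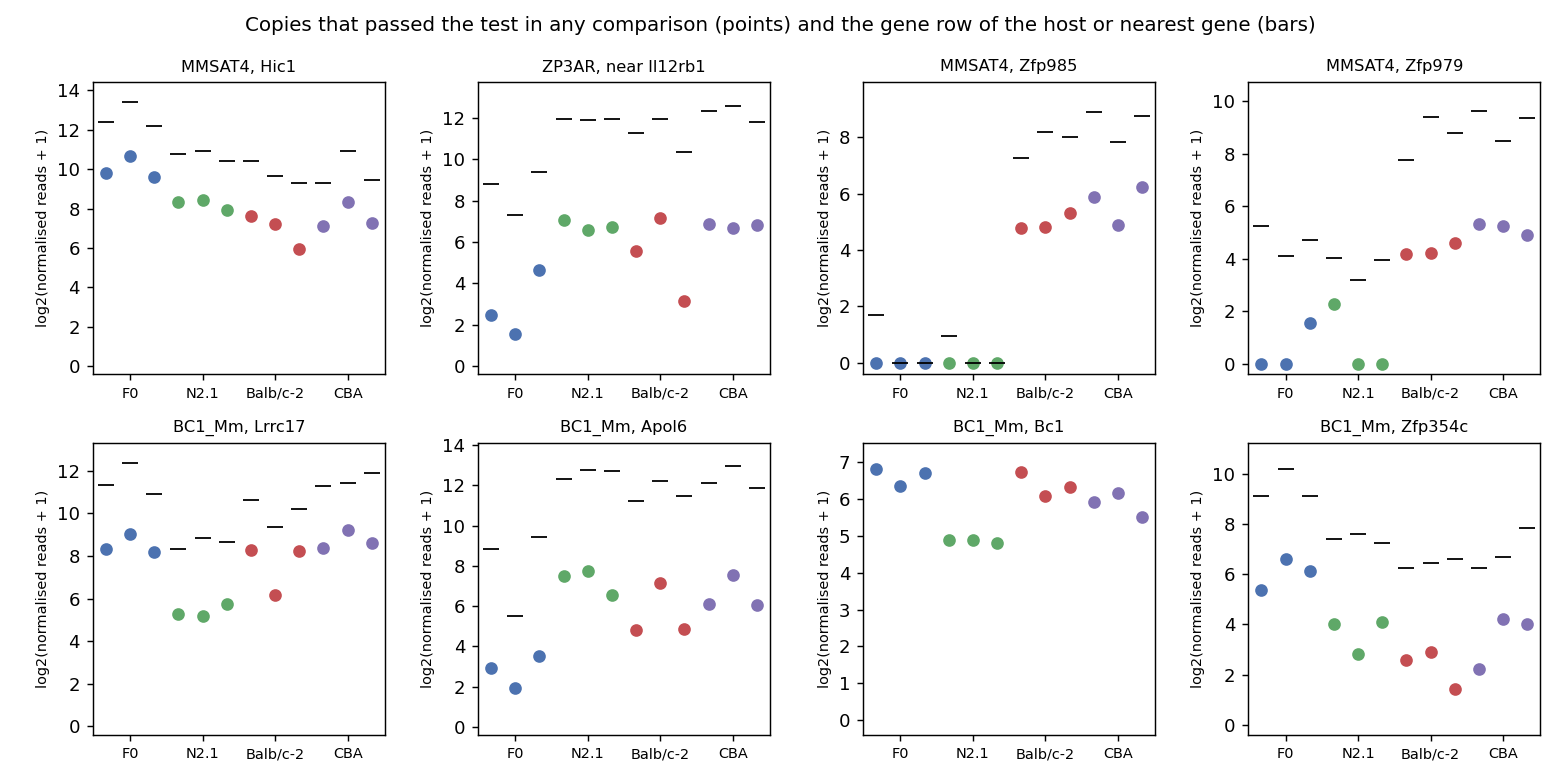
Points give log2(normalised reads + 1) of the 8 copies called in any comparison, in the 12 tumours in the order A, B, C of each group, and bars the gene row of the host or, for the ZP3AR copy, the nearest gene. In the comparison in which a copy was called, its gene row changed in the same direction, and Bc1, which has no gene row in the table, is lowest in N2.1 (27.1 to 28.5 on the linear scale).

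Of the 607 copies tested, between 0 and 4 were called in a comparison. In N2.1 against F0, 4 of 607 were called, 2 higher and 2 lower, where 1.52% of 22257 copies were called (1.23% higher and 0.288% lower). The tumour letter as a block treats same-letter tumours as pairs. With it, 2 of the 4 stayed called over all 12 tumours (beside 0.876% of all copies). Over the 6 tumours alone 35 were called with the block, the 4 among them, beside 11.1% of all copies. In Balb/c-2 against F0, 3 were called, 1 higher and 2 lower, beside 0.746% (0.544% higher and 0.202% lower). In CBA against F0, 4 were called, 3 higher and 1 lower, beside 0.948% (0.696% higher and 0.252% lower). In Balb/c-2 against N2.1, 1 was called, higher, beside 0.377% (0.243% higher). In CBA against Balb/c-2, 0 were called with limma, edgeR or DESeq2, 18 had an unadjusted p under 0.05 with limma, and 0.0629% of all copies were called.

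The median log2 change of the 348 MMSAT4 copies that passed the filter was -0.94 in Balb/c-2 against F0, beside -0.04 over all copies. Counts depended on Balb/c-2 B: without it, 30 copies were called in Balb/c-2 against F0 (27 lower) and 46 in Balb/c-2 against N2.1 (37 lower). The share of all repeat copies called without that tumour is not given, so these counts cannot be set against it. Of the 30 and 46 copies, 19 and 27 were MMSAT4 copies, which made up 348 of the 607 copies tested. The Balb/c-2 tumours then left, A and C, had few MMSAT4 reads far from the 3′ end, and the part of this in the counts was not tested. The count in N2.1 against F0 fell from 4 to 0 without N2.1 A, to 1 without F0 B and to 2 without F0 A, N2.1 B or N2.1 C, and that in CBA against F0 from 4 to 1 without F0 A, F0 B, CBA A or CBA C and to 2 without CBA B. Without Balb/c-2 C and CBA B, a choice made after values were seen, the counts were 2, 3, 1 and 0 in the 4 comparisons that hold Balb/c-2 or CBA, in the order given above.

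Markers of host cells moved between groups too. Of 9 leukocyte markers, Cd8a rose in N2.1 against F0 (log2 4.37, adjusted p = 0.0307) and Csf1r fell in CBA against F0 (-1.09, 0.0366), and their summed level was 20899 to 26863 in F0, 31991 to 44134 in N2.1, 17676 to 39284 in Balb/c-2 and 15021 to 15650 in CBA. Of 3 fibroblast markers, Dcn rose in N2.1 (2.38, 0.0346), while Pdgfra was at -1.17 there (0.105) and Col1a1 at 0.60 (0.295). In Balb/c-2 Pdgfra fell (-1.90, 0.0287), while Dcn was at 0.82 (0.513) and Col1a1 at -0.09 (0.911). With the block over the 6 tumours, Cd8a was not called in N2.1 (0.124), and 5 other leukocyte markers were called higher. With that block Col1a1 was called higher (0.0100) and Pdgfra lower (0.000566). Of 3 endothelial markers, Kdr and Cdh5 fell in CBA (-1.76 and -1.38, 0.0119 and 0.0306). The part of these cells in the called copies was not tested.

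In the other 4 comparisons none of the subfamilies described here that passed the filter was called with limma. Over all subfamilies tested, 2.67% were called in N2.1 against F0 and 0.919% in CBA against F0. The share was 0.0835% in Balb/c-2 against N2.1 and 0.167% in CBA against Balb/c-2. Of the subfamilies described here, 0 had an unadjusted p under 0.05 with limma in N2.1 against F0 and 1 in each of the other 3. Among them edgeR called 0 in all 4.

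7SLRNA, the small RNA of the signal recognition particle, varied between tumours and was not called. Its sum was 111, 69.7 and 159 in F0, 158, 85.6 and 479 in N2.1, 1456, 97.1 and 152 in Balb/c-2, and 56.8, 566 and 71.0 in CBA. One tumour stood far above the others in each of N2.1, Balb/c-2 and CBA. The log2 change was 0.79 ± 1.04 in N2.1 against F0 (adjusted p = 0.912), 1.37 ± 1.04 in Balb/c-2 (0.425) and 0.30 ± 1.04 in CBA (0.957). With Balb/c-2 A alone on the first flow cell it was 3.75 in Balb/c-2 against F0 (0.0180).

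The copies at Rn7s1 and Rn7s2, whose exons are identical, held 49.2% and 43.9% of the 7SLRNA signal. In Balb/c-2 A they were at 711 and 707, in CBA B at 294 and 254 and in N2.1 C at 247 and 224. The gene rows of Rn7s1 and Rn7s2 held at most 24.0 in any tumour, so reads of these loci were counted almost wholly in the repeat rows. Among other small RNAs of RNA polymerase III, chosen after values were seen, Rn7sk was highest in CBA B (222) and Balb/c-2 A (181), and Rpph1, the RNA of ribonuclease P, in CBA B (107) and Balb/c-2 A (53.7). N2.1 C was not high for these, with 57.8 and 9.03. In Balb/c-2 B and C, where 7SLRNA summed to 97.1 and 152, Rn7sk was at 116 and 121 and Rpph1 at 2.80 and 45.5.

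Genes that silence, read or carry these repeats were mostly not called. None of the 10 genes of the signal recognition particle and its receptor passed in any of the 5 comparisons, and Srp14 and Srp9, whose products bind 7SL and related RNAs, had log2 changes of 0.23 ± 0.38 and -0.09 ± 0.42 in N2.1 against F0 (adjusted p = 0.811 and 0.948). None of 12 partners of small cytoplasmic RNAs and none of 6 genes of RNA decay passed. The most abundant of these were Pabpc1 and Exosc10. With the block over the 6 tumours of F0 and N2.1, where 30.9% of all genes were called, these lists had 2 of 10, 4 of 12 and 1 of 6 genes called.

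Of 26 heterochromatin genes, 3 fell in N2.1 against F0 and 0 rose, where 7.91% of 17491 genes were called and 2.9% were called lower. Hells and Cdca7, partners in a remodeller needed for DNA methylation of satellites, fell by 1.09 ± 0.28 and 1.27 ± 0.33 on the log2 scale (adjusted p = 0.0373 and 0.0387). Uhrf1, which guides maintenance methylation, fell by 0.90 ± 0.24 (0.0435). The list's median was -0.39, beside -0.02 over all genes. GSAT_MM was not called in that comparison. With the block, Cdca7 was not called over all 12 tumours (adjusted p = 0.0666), and 13 of the 26 genes, 10 lower and 3 higher, were called over the 6 tumours.

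Proliferation markers moved with these genes. In N2.1 against F0, Mcm6 and Ccnb1, 2 of 4, fell (log2 -1.20 and -1.52, adjusted p = 0.00852 and 0.0251), Mki67 was at -0.98 (0.140) and Top2a at -0.56 (0.344), and the median of the 4 was -1.09. With the block over the 6 tumours all 4 were called lower. Their summed level was 34098 to 51253 in F0 and 16563 to 33354 in N2.1. The part of proliferation in the falls of the heterochromatin genes and of Oip5 was not tested.

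Among centromere genes, Oip5, which is needed to load new Cenpa, fell in N2.1 against F0 by 1.22 ± 0.32 on the log2 scale (adjusted p = 0.0387). Of 28 genes of RNA polymerase III transcription, Gtf3c6 fell in N2.1 by 0.93 ± 0.24 (adjusted p = 0.0385) and Snapc5 in CBA by 1.32 ± 0.33 (0.0436), where 5.04% of all genes were called and 2.69% lower. With the block over the 6 tumours, Polr3e was called lower in N2.1 as well (0.0413). With Balb/c-2 in the comparison, no gene of these 6 lists was called, beside 3.51% of all genes against F0, 2.32% against N2.1 and 1.04% for CBA.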

How the data were processed

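Genes and single repeat copies of 12 tumours share 1 table, whose deposited values are a normalised signal with 3 decimals. The submitters' processing notes name featureCounts 1.5.0-p3, StringTie 1.3.3b, HISAT2 2.0.5 and mm10. What each tool did, how values were normalised, the strand setting and the treatment of multiply mapped reads are not given in those sources, so overlapping or antisense transcripts could not be told apart. In each column the signal came in steps of 1 read (100% of values within 0.1 reads of a whole number), and reads were recovered by dividing by that step.

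Repeat copies, their subfamily sums and genes were tested as 3 families with limma 3.58.1 (R 4.3.3) on log2(value + 1), trended and robust, with a mean per group over 12 tumours. Features at 10 or more in at least 3 tumours were kept. Tests were two-sided, with Benjamini-Hochberg adjustment over all features of a family and calls under 0.05. Log2 changes are on the log2(value + 1) scale and understate changes of low features. Class sums were compared by a two-sided permutation test. Intervals and floors cover counting error only. edgeR 4.0.16 and DESeq2 1.42.0 on the recovered reads, other pseudocounts, filters, TMM scaling, flow cell, tumour letters as a block and leaving out each tumour were alternatives. The labels do not say that a letter is shared between groups. Over genes, deviations from group means correlated between same-letter tumours of F0 and N2.1 in all 3 pairs (0.18 to 0.48). Between tumours of F0 and N2.1 with other letters, correlations ran from -0.36 (F0 C and N2.1 B) to 0.23 (F0 C and N2.1 A). The latter was above the same-letter pairs A (0.20) and C (0.18), so pairing by letter is not established. The block over the 6 tumours of F0 and N2.1 was added after values were seen, and its p values assume such pairs. In the other pairs of groups at most 2 of 3 same-letter correlations were over 0.1. The fits were tested on simulated data. Copies were placed on GENCODE M21 (GRCm38, the same build), and promoter windows are from RefSeq.

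Named copies were the 5 most abundant of each class, the most abundant of each subfamily, and up to 3 rises and 3 falls per comparison among called copies without overlap whose higher group averaged 20 or more. Each copy called is named. The members, lists and rules were chosen with earlier results of these data known. Nothing says that the tumours of a group came from separate cultures. Some items are not reported here.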

Additional observations from a re-analysis of the deposited data

How the results depend on the processing

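The count of subfamilies called in Balb/c-2 against F0 went from 1 to 2 with DESeq2 (MurSAT1 added), to 3 with flow cell as a covariate and to 3 within a flow cell (MurSAT1 and 7SLRNA added), and lay between 0 and 1 when each tumour was left out. DESeq2 called 1 in CBA against F0 and 1 in Balb/c-2 against N2.1, in place of 0. Copies called in N2.1 against F0 went from 4 to 2 (edgeR), 9 (DESeq2), 13 (within a flow cell), 12 (only the 2 groups compared), 2 and 35 (replicate block over all tumours and over the 6 tumours), and 0 to 3 with a tumour left out. In Balb/c-2 against F0 they went from 3 to 7 (pseudocount of 10), 5 (no filter), 14 (DESeq2), 0 (flow cell as a covariate), 7 (within a flow cell), 1 (only the 2 groups) and 2 to 30 (a tumour left out). In CBA against F0 they went from 4 to 7 (pseudocount of 10), 1 (edgeR), 10 (DESeq2), 0 (flow cell), 2 (only the 2 groups) and 1 to 4. In Balb/c-2 against N2.1 they went from 1 to 2 (pseudocount of 10), 3 (no filter), 12 (DESeq2), 0 (flow cell), 6 (within a flow cell), 0 (only the 2 groups) and 1 to 46. The cause of these moves was not tested. Except for the replicate block in N2.1 against F0, the share of all features called under these alternatives is not given. The counts under the other alternatives therefore cannot be set against such a share. Of 13 called values, 0 changed sign under any alternative that gave a value.

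Only between F0 and N2.1 were all 3 same-letter correlations over 0.1, and other-letter correlations there reached 0.23. Same-letter correlations between the other groups ran from -0.41 to 0.43. With the replicate block over all tumours, 2 copies were called in Balb/c-2 against F0, 3 in CBA against F0 and 1 in Balb/c-2 against N2.1, and GSAT_MM stayed called in Balb/c-2 against F0 (adjusted p = 0.0288). The copies in Zfp354c (Balb/c-2 against F0, 0.0686) and Zfp979 (CBA against F0, 0.0547) lost their calls, and beside those and the N2.1 values given above the block changed no other call of a copy or subfamily called without it. CBA against F0 gave no value within a flow cell. Low read numbers limit GSAT_MM, MurSAT1 and the low copies.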
